A study of Paralichthys olivaceus with 6 samples.

Results

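The genes crh and gal encode the stress peptide corticotropin-releasing hormone and the neuropeptide galanin, and they are 2 of the 24395 genes counted in hindbrain RNA of a marine flatfish kept in aquaculture, the olive flounder Paralichthys olivaceus. They were chosen by their identifiers and by their level, their range between libraries and their values in the groups by title, so those values are given as a description and without a test. The series set fish selected as bold against fish selected as shy, kept in aerated tanks under one light cycle, fed to satiation with pellets and killed under anaesthesia, with 3 libraries per group. In all 6 libraries the title disagrees with the personality characteristic, which names as shy what the title names as bold and the reverse. The groups are therefore called titled bold and titled shy, and every direction below turns around if the characteristic is right. The labels state no age, sex or genotype, and their wording leaves unclear if the 6 individuals they mention went into every library or are the whole set of fish. P-values therefore measure only the spread between these libraries.

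Corticotropin-releasing hormone is a secreted peptide that, in fish as in mammals, is made by neurons of the preoptic area and hypothalamus and by other brain neurons. It drives the pituitary to release adrenocorticotropin, which in fish raises cortisol output from the interrenal tissue of the head kidney. Galanin is a peptide of hypothalamic, preoptic and brainstem neurons and acts through G-protein coupled receptors, mostly inhibitory, in circuits for feeding, arousal and reproduction. Both peptides are cut from longer precursors and stored in dense-core vesicles.

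Library totals lay between 18081694 and 22805563 counts, so that 3 reads corresponded to between 0.132 and 0.174 CPM (counts relative to library size, scaled between libraries by TMM). Of the 24395 genes, 19755 passed the filter on low counts and were tested. Between the titles, edgeR's quasi-likelihood test called 0 of them at a Benjamini-Hochberg adjusted p under 0.05 (0%, smallest adjusted p 0.943). At an unadjusted edgeR p under 0.05 were 690, or 3.49%. DESeq2 called 12, or 0.0688% of the 17439 genes to which it gave an adjusted p. The label hindbrain was checked against 32 rows of hindbrain and cerebellum transcription factors, where 12 averaged 1 CPM or more and 6 were without a read in any library (hoxb2, hoxb4, phox2a, gbx2, lbx1b and lbx1). Rows of this list that passed the filter on low counts were mafb, egr2, lmx1b, gata, en2 and zic genes, and none was a hox gene. Of 36 rows of hypothalamic and preoptic transcription factors, 28 averaged 1 CPM or more. Of 18 rows of hindbrain neuron genes, such as those of cerebellar and monoamine neurons, 13 averaged 1 CPM or more and all had reads, with sums of 2533 to 3291 CPM per library. Genes listed as hypothalamic thus had reads in libraries labelled hindbrain. Reads of a listed gene do not tell the region they came from. How much of each library came from which region was not tested.

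crh was high in the library numbered 1 of each title and low elsewhere. In libraries titled bold 1, 2 and 3 it had 277, 21 and 32 reads, or 13.2, 1.22 and 1.60 CPM. In libraries titled shy 1, 2 and 3 it had 159, 49 and 68 reads, or 7.01, 2.17 and 3.22 CPM. The 2 groups overlapped, because titled bold held both the highest library and the 2 lowest. The highest library stood 10.9-fold above the lowest, and within titled bold library 1 stood 9.40-fold above the mean of the other 2, against 2.60-fold within titled shy. The 95% counting intervals (exact Poisson) ran from 11.7 to 14.9 CPM for titled bold 1 and from 0.755 to 1.86 CPM for titled bold 2. They did not overlap, but the range between libraries helped to choose crh, so this is a description. The order from highest to lowest was titled bold 1, titled shy 1, 3 and 2, and titled bold 3 and 2. Among the last 4 of these the intervals of adjacent libraries overlapped, while that of titled shy 3, from 2.50 to 4.08 CPM, lay above those of titled bold 3 and 2. The intervals cover counting error only.

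gal followed nearly the same order of libraries, with a higher level in libraries titled shy 2 and 3 than in titled bold 2 and 3. It had 309, 34 and 44 reads in libraries titled bold 1, 2 and 3, or 14.8, 1.97 and 2.19 CPM. It had 473, 250 and 250 reads in libraries titled shy 1, 2 and 3, or 20.8, 11.05 and 11.8 CPM. The groups overlapped again, this time through titled bold 1 alone, which lay between titled shy 1 and titled shy 3. The intervals of titled shy 2 and 3 overlapped, as did those of titled bold 1 and titled shy 3. The highest library stood 10.6-fold above the lowest. The intervals of titled bold 2, from 1.37 to 2.76 CPM, and titled bold 3, from 1.59 to 2.94 CPM, overlapped each other and lay far below those of the other 4 libraries. In bulk tissue, fewer gal or crh neurons in a sample and less of the transcript per neuron cannot be told apart.

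**Figure D1:**
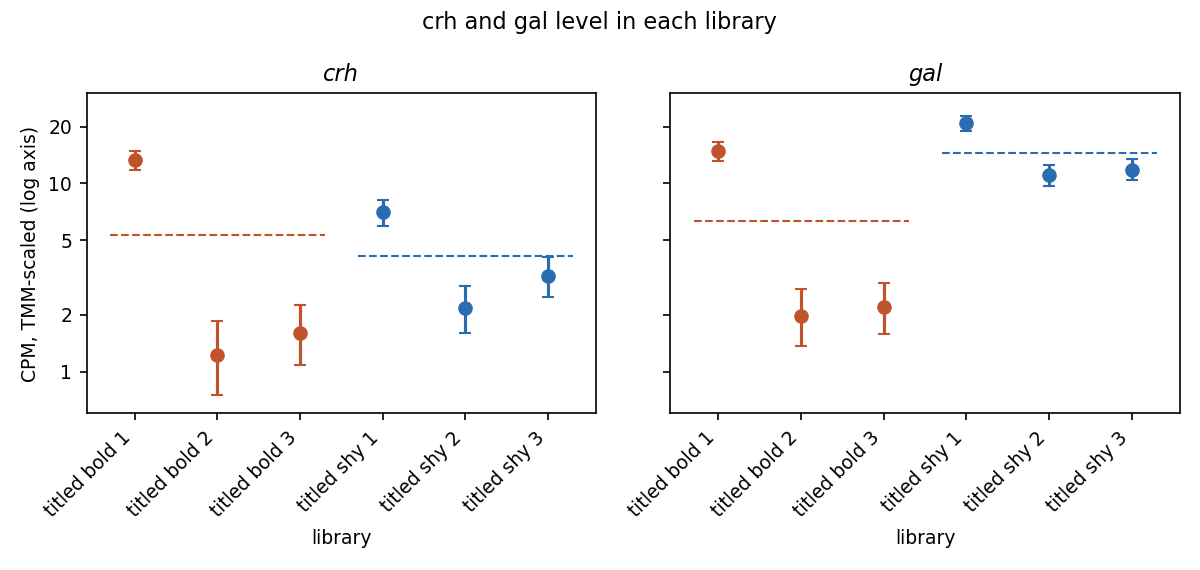
Level of crh (left) and gal (right) in each library as TMM-scaled CPM on a log axis; points are libraries (red titled bold, blue titled shy), bars are 95% exact Poisson intervals of the count, and dashed lines are group means. Titled bold 1 and titled shy 1 are the highest 2 libraries for both genes, and titled bold 2 and 3 are the lowest 2.

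The group means reflect this uneven spread. crh averaged 5.35 ± 6.83 CPM (SD, n = 3) in libraries titled bold and 4.13 ± 2.55 CPM (SD, n = 3) in libraries titled shy. gal averaged 6.31 ± 7.32 CPM (SD, n = 3) in libraries titled bold and 14.6 ± 5.44 CPM (SD, n = 3) in libraries titled shy, 2.31-fold higher in titled shy. As log2 folds of titled bold over titled shy, edgeR's estimates were 0.38 ± 0.88 (SE) for crh and -1.20 ± 0.74 (SE) for gal. The sign for crh depended on the fit: limma-voom gave -0.23 and the fit with a replicate block -0.22. Without titled bold 1 the log2 folds were -1.53 for crh and -2.78 for gal. Without both libraries numbered 1, which was tried after the values were seen, they were -0.91 and -2.43, and the means were 1.41 against 2.69 CPM for crh and 2.08 against 11.4 CPM for gal.

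Both genes were among the more variable between libraries. The SD of log2 CPM over the 6 libraries was 1.28 for crh and 1.44 for gal, against a median of 0.243 over all tested genes. Among the 4327 tested genes with a mean between 2.37 and 9.48 CPM, within a factor of 2 of crh, 1.43% had a larger SD than crh and the median gap between the highest and the lowest library was 1.99-fold. Among the 5764 with a mean between 5.22 and 20.9 CPM, 0.347% had a larger SD than gal. Since the range between libraries helped to choose the 2 genes, these ranks describe the choice.

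The gal share of the crh and gal reads did not overlap between the titles, while the level of each gene did. gal reads made up 52.7%, 61.8% and 57.9% of the crh and gal reads in libraries titled bold 1, 2 and 3. They made up 74.8%, 83.6% and 78.6% in libraries titled shy 1, 2 and 3. The highest library titled bold thus lay below the lowest titled shy, with group means of 57.5 ± 4.56% and 79.0 ± 4.40% (SD, n = 3 each). Counting intervals (95%, Clopper-Pearson) were 47.7% to 74.6% for titled bold 2, which rests on 55 reads, and 71.3% to 78.2% for titled shy 1, which rests on 632. The share uses no scaling between libraries. It was computed after the values were seen from the same counts that chose the genes, so it has no test. Among single tested genes 9.53% did not overlap between titles, and how often shares of gene pairs do so is not given here. The difference of the group means was 21.5 percentage points with all libraries and between 19.2 and 23.7 without any 1 of them. Shares within a library do not compare the levels of the 2 genes, since transcript lengths were not used.

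**Figure D2:**
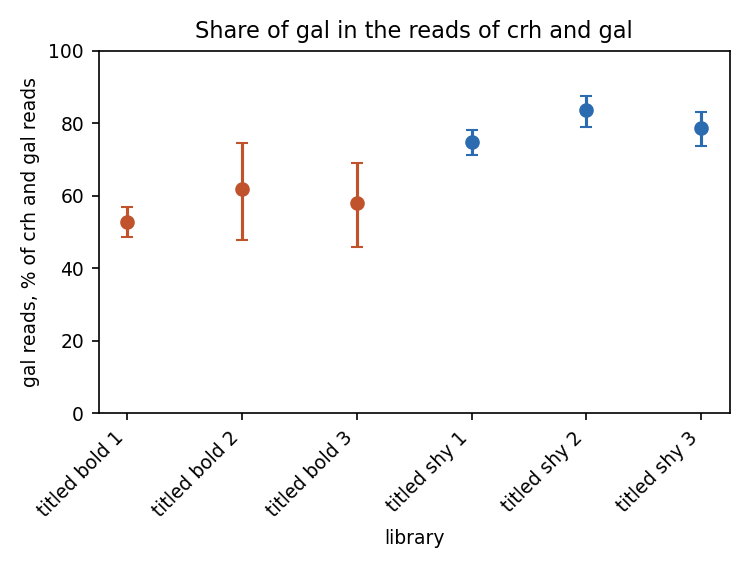
Share of gal among the reads of crh and gal in each library, in percent, with 95% Clopper-Pearson intervals as bars. The 3 libraries titled bold lie between 52.7% and 61.8% and the 3 titled shy between 74.8% and 83.6%.

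Over the 6 libraries, log2 CPM (prior count 2) of crh and gal had a Pearson r of 0.80 and a Spearman rho of 0.94. Without titled bold 1 and titled shy 1, the 2 libraries farthest from the median of crh, r over the other 4 was 0.90. Both values of a point come from the same library and share its preparation and depth, and these correlations are a description.

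Another peptide gene of the CRH family, uts1, ran opposite to crh. uts1 (LOC109640832 in the files) encodes urotensin I, the fish counterpart of urocortin. It had 0.956, 6.91 and 1.74 CPM in libraries titled bold 1, 2 and 3 and 0.573, 1.02 and 1.28 CPM in libraries titled shy 1, 2 and 3. The highest library was titled bold 2, where crh was lowest, and the lowest was titled shy 1, where crh was second highest, with r = -0.71 to crh and -0.86 to gal. The log2 fold of uts1 was 1.73 ± 0.72 (edgeR adjusted p = 0.955), and 0.50 without titled bold 2. Its unadjusted edgeR p was 0.0414. ucn3, which encodes urocortin 3, had 0.621, 0.116 and 0.598 CPM in libraries titled bold and 0.617, 0.663 and 0.521 CPM in libraries titled shy, so that the library lowest for crh was also lowest for ucn3. Its log2 fold was -0.40 ± 0.62 (edgeR adjusted p = 0.957). Searched symbols of the receptors of CRH, of other urocortins and of pro-opiomelanocortin were on no row matched here, and these genes were not analysed here.

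The gene of the CRH-binding protein, crhbp, whose product binds CRH outside cells and limits its action, went through the libraries much as both peptide genes did. It had 4.16, 0.232 and 0.399 CPM in libraries titled bold 1, 2 and 3 and 2.16, 1.72 and 1.37 CPM in libraries titled shy 1, 2 and 3. Titled bold 2, at 4 reads, and titled bold 3, at 8 reads, were the lowest, as for gal, and r was 0.90 to crh and 0.93 to gal. Between titles the groups overlapped, with a log2 fold of -0.12 ± 0.89 (edgeR adjusted p = 0.989), and -2.42 without titled bold 1.

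Among genes farther down the stress axis, none was called between titles by edgeR. Of 24 matched rows 20 were tested, with 11 folds above 0 and 9 below, a median log2 fold of 0.01 against -0.0090 over all tested genes, and 0 at an unadjusted p under 0.05 where 3.49% of all tested genes were. The members with the smallest p were nr3c1, the glucocorticoid receptor gene, with a log2 fold of -0.41 ± 0.20 (edgeR adjusted p = 0.955), cebpb, for a transcription factor that responds to glucocorticoids, at -0.58 ± 0.31, and fkbp5, for a co-chaperone of the glucocorticoid receptor, at -0.52 ± 0.37. nr3c1 had 18.5, 11.3 and 13.6 CPM in libraries titled bold and 19.8, 17.9 and 20.3 CPM in libraries titled shy, and was lowest in the 2 libraries lowest for gal (r = 0.95). A second row with that symbol, LOC109639770, had a higher level and a narrow range, with r = -0.38 to gal. Its log2 CPM was 5.90 to 6.03 over the 6 libraries, against 3.51 to 4.35 for the first row. nr3c2, the mineralocorticoid receptor gene, had 13.7, 4.88 and 7.38 against 12.8, 8.09 and 9.13 CPM, with r = 0.94 to crh. mc4r (LOC109641149), the melanocortin receptor gene linked to feeding, had 4.87, 2.38 and 3.49 against 5.82, 3.01 and 3.41 CPM, with r = 0.87 to crh. The fkbp5 row (LOC109643392) stood at 167 CPM in titled shy 1 and between 54.8 and 88.0 CPM in the other 5 libraries, so it did not share the rise of crh in titled bold 1.

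The other 2 peptide rows of the galanin and kisspeptin family had few reads. spx, which encodes spexin, a relative of galanin, had between 0 and 3 reads per library and was not tested. kiss2 (LOC109637451), which encodes the peptide kisspeptin 2, had 21, 14 and 15 reads in libraries titled bold and 13, 0 and 0 in libraries titled shy. The groups did not overlap for kiss2, which was also so for 9.53% of all tested genes (4.53% higher in titled bold, as kiss2), and edgeR's adjusted p was 0.955. Its order of libraries was unlike that of gal, with r = -0.34.

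Among receptor genes, galr1, for galanin receptor 1, had the pattern closest to that of the peptides. It had 7.07, 2.96 and 3.04 CPM in libraries titled bold 1, 2 and 3 and 6.52, 4.42 and 5.44 CPM in libraries titled shy 1, 2 and 3. The 2 lowest libraries were those lowest for gal, with r = 0.95 to gal and 0.94 to crh, over a smaller range of levels. The row galr1a (LOC109640407) ranged from 0.705 CPM in titled shy 1 to 2.44 CPM in titled bold 3, with r = -0.54 to gal, and galr1b (LOC109624904) had at most 5 reads in a library. galr2b (LOC109634160), for a galanin receptor 2, varied least of the receptor rows, from 12.5 to 18.6 CPM, with r = 0.39 to gal. kiss1ra (LOC109641387) and kiss1rb (LOC109637060), for kisspeptin receptors, ranged from 2.89 to 4.97 and from 0.237 to 1.67 CPM, and gpr151, for an orphan receptor related to galanin receptors, from 1.22 to 2.84 CPM. Of the 6 receptor rows tested, 2 folds were above 0 and 4 below, from -0.50 for gpr151 to 0.69 for kiss1rb, with a median log2 fold of -0.19. At an unadjusted edgeR p under 0.05 were 0 of the 6, where 3.49% of all tested genes were. How reads of close copies such as galr1, galr1a and galr1b were assigned is not given in the sources used here, so their split is uncertain.

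Most genes that process and store such peptides varied less between libraries than crh and gal. All 22 rows had a mean of at least 1 CPM, with 13 folds above 0 and 9 below. At an unadjusted edgeR p under 0.05 were 0 of the 22, where 3.49% of all tested genes were. Their median SD of log2 CPM was 0.19 against 0.24 over all tested genes. The median over all tested genes was not matched to the level of these rows. The widest ranges were those of slc18a2 and scg2. scg2, for secretogranin II, a dense-core vesicle protein, had 130, 35.5 and 48.6 CPM in libraries titled bold 1, 2 and 3 and 161, 82.9 and 66.1 CPM in libraries titled shy 1, 2 and 3. It was lowest where crh and gal were lowest, with r = 0.89 to crh and 0.91 to gal, and its log2 fold was -0.53 ± 0.53 (edgeR adjusted p = 0.955). Its second row, scg2b (LOC109637837), ranged from 415 to 574 CPM with r = 0.00 to gal. slc18a2, for the vesicular monoamine transporter, had 3.78, 0.290 and 2.24 against 7.14, 3.67 and 1.56 CPM, with r = 0.68 to crh and 0.76 to gal, and was lowest in titled bold 2.

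**Figure D3:**
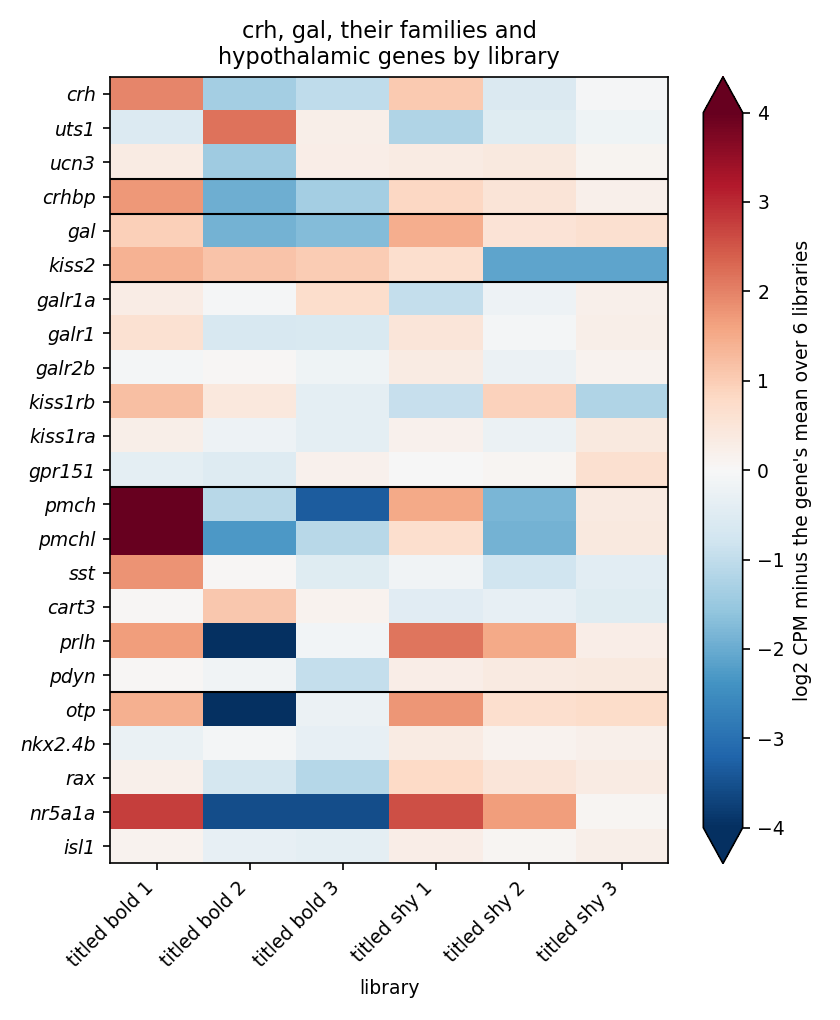
log2 CPM of each gene minus its mean over the 6 libraries, for crh, gal, tested genes of their families and the hypothalamic genes named by rule; black lines part the lists, red is above and blue below the gene's mean, and colours stop at 4 log2 units. crhbp, galr1, prlh, otp and nr5a1a share the low values of crh and gal in titled bold 2, while uts1 is highest there.

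Many peptides and transcription factors of the hypothalamus and preoptic area followed the library order of crh and gal. Of 22 tested rows of other hypothalamic peptides, 10 had r of at least 0.7 to crh and 9 to gal, where 13.9% and 16.7% of all tested genes did. The mean log2 CPM over these 22 was 3.32, 1.51 and 1.67 in libraries titled bold 1, 2 and 3 and 3.04, 2.27 and 2.32 in libraries titled shy 1, 2 and 3. That is the order of crh from highest to lowest (rho = 1), with r = 0.98 to crh and, without titled bold 1 and titled shy 1, r = 0.93. With gal r was 0.90, and 0.74 without titled bold 2 and 3. The lists and the 2 genes share library and depth, so these values too are a description. Other lists followed crh as well: the list mean had r = 0.90 to crh for other brain peptides, 0.88 for prohormone processing and dense-core vesicles and 0.68 for hindbrain neuron genes. Without titled bold 1 and titled shy 1 these values were 0.39, 0.44 and 0.33. Without the same libraries r to crh was 0.95 for galanin family receptors, 0.89 for the saccus vasculosus and ventricle list and 0.63 for the stress axis. It was -0.87 for hindbrain and cerebellum transcription factors. No test set one list against another. Hypothalamic peptides summed to 219 to 2309 CPM in libraries titled bold and 240 to 445 CPM in libraries titled shy. The highest sum, in titled bold 1, came mostly from the melanin-concentrating hormone genes pmch and pmchl, at 726 and 1354 CPM there. It thus does not show a rise of the list as a whole. Of the 28 matched rows of that list, 0 were without a read.

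The melanin-concentrating hormone genes, which act in feeding and, in fish, in skin colour, had some of the widest ranges. pmch (LOC109640771) had 726, 15.7 and 3.29 CPM in libraries titled bold and 98.0, 9.63 and 43.8 CPM in libraries titled shy. pmchl (LOC109640906) had 1354, 14.6 and 33.7 against 116, 19.4 and 94.1 CPM. As for crh, titled bold 1 was highest and titled shy 1 second, with r = 0.92 and 0.94 to crh. The prolactin-releasing peptide gene prlh had 13.5, 0 and 3.89 against 18.7, 12.1 and 5.11 CPM, and so had no read in titled bold 2.

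Between titles, 2 of these 22 rows had an unadjusted edgeR p under 0.05, 1 in each direction, where 1.74% of all tested genes were higher and 1.75% lower in titled bold at that level, and 0 were called. The median log2 fold was -0.28, and between -0.95 and 0.26 under the alternatives. cart3 (LOC109644023), a cart gene, the family of which curbs feeding, had 7.88, 16.1 and 8.43 against 5.55, 6.01 and 5.35 CPM, a log2 fold of 0.94 ± 0.30 (edgeR adjusted p = 0.955). pdyn, for the opioid precursor prodynorphin, had 37.3, 32.3 and 18.5 against 43.4, 45.5 and 47.4 CPM, a log2 fold of -0.63 ± 0.23 (edgeR adjusted p = 0.955). The groups did not overlap for these 2 genes, or 9.09% of the list, near the 9.53% of all tested genes. sst, the somatostatin gene with the third smallest p, had 8.36, 2.38 and 1.65 against 2.12, 1.28 and 1.70 CPM.

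Of all tested genes, 13.9% had r of at least 0.7 to crh and 16.7% to gal. Of 31 tested rows of hypothalamic and preoptic transcription factors, 11 and 12 did. Their mean log2 CPM was 3.15, 2.11 and 2.29 in libraries titled bold 1, 2 and 3 and 3.41, 2.96 and 2.72 in libraries titled shy 1, 2 and 3, with r = 0.96 and rho = 0.94 to gal and r = 0.84 to crh. Without titled bold 2 and 3, which lie apart from the other libraries for gal, r to gal was 0.90. Other list means had r to gal of 0.74 (prohormone processing and dense-core vesicles), 0.61 (stress axis) and 0.75 (other brain peptides). Without titled bold 2 and 3 these were 0.90, 0.86 and 0.72, while galanin family receptors had -0.40 and glia -0.75. otp, a factor needed to form neuroendocrine neurons of the preoptic area, including crh neurons in zebrafish, had 5.26, 0 and 1.60 against 6.70, 3.09 and 3.22 CPM. nr5a1a (LOC109639075), a gene of the steroidogenic factor 1 family that marks the ventromedial hypothalamus in mammals, had no read in titled bold 2 and 3, 7.65 CPM in titled bold 1, and 6.61, 3.49 and 1.09 CPM in libraries titled shy. Both genes were thus lowest, or had no read, in the libraries lowest for gal, but they were named for their large SD. Of the 31 tested factors 9 were lowest in titled bold 2, where 29.3% of all tested genes were lowest.

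Among the other factors named from this list, most had narrower ranges. isl1, for a factor of several neuron classes, had 28.0, 20.5 and 19.7 against 30.7, 27.0 and 30.3 CPM, with r = 0.97 to gal, and rax, for a factor of the developing hypothalamus and retina, had 3.06, 1.57 and 1.15 against 4.63, 3.76 and 3.36 CPM, with r = 0.95. nkx2.4b (LOC109643543), a hypothalamic patterning gene, had 29.3, 33.7 and 28.0 against 44.5, 39.2 and 41.1 CPM. nkx2.4b and rax had an unadjusted edgeR p under 0.05, at log2 folds of -0.45 ± 0.12 (adjusted p = 0.955) and -1.02 ± 0.40 (adjusted p = 0.955), where 1.75% of all tested genes were lower at that level, with 0 of the 31 called, 9 folds above 0 and 22 below, and a median of -0.27. Summed over the 36 rows the level was 664, 722 and 631 CPM in libraries titled bold 1, 2 and 3. In libraries titled shy 1, 2 and 3 it was 733, 649 and 749 CPM. In titled bold 2, the lowest library for crh and gal, the sum was above those of titled bold 1 and titled shy 2. The sum leans on abundant rows such as arnt2, which had a log2 CPM of 8.33 in titled bold 2. In titled bold 1 and titled shy 2 arnt2 had 7.94 and 8.01. gsx1 had 6.64 in titled bold 2, against 5.83 in titled bold 1 and 5.76 in titled shy 2. The mean of log2 CPM over the tested rows, unlike the sum, was lowest in titled bold 2. Whether the amount of hypothalamic tissue in a sample set the level of crh and gal was not tested.

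**Figure D4:**
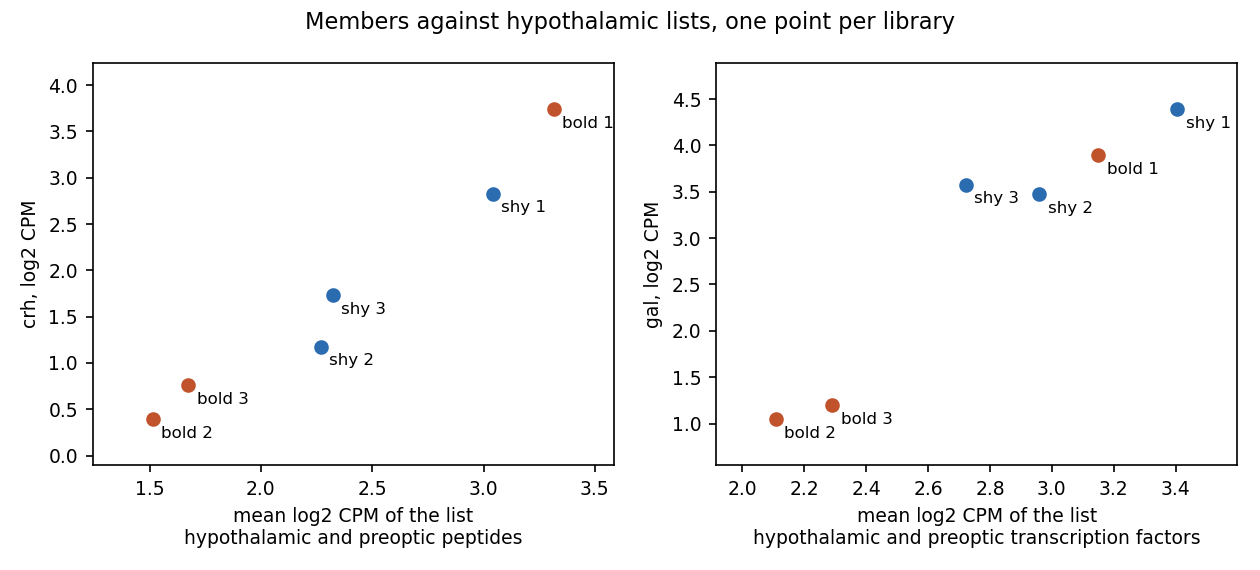
Log2 CPM of crh against the mean log2 CPM of 22 hypothalamic and preoptic peptide genes (left), and of gal against that of 31 hypothalamic and preoptic transcription factor genes (right); each point is a library, red for titled bold and blue for titled shy. On the left the order of libraries is the same on both axes. On the right titled bold 2 and 3 lie apart at the lower left. Each gene is shown with the list mean that had the highest r to it of those compared. With the lists swapped, r is 0.84 for crh and 0.90 for gal.

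Among hindbrain genes the lists differed. Hindbrain neuron genes had a median r of 0.09 to crh and 0.19 to gal over 14 tested rows. Of these, 4 had r of at least 0.7 to crh, where 13.9% of all tested genes did. Lowest in titled bold 2 were 8 of them, where 29.3% of all tested genes were. Hindbrain and cerebellum transcription factors had a median r of -0.31 to crh and -0.51 to gal over 12 tested rows, and their summed level was 203 to 219 CPM in libraries titled bold and 164 to 220 CPM in libraries titled shy. Pituitary genes, of which 10 of 11 rows had reads, summed to 10.2, 42.8 and 17.8 CPM in libraries titled bold 1, 2 and 3 and 18.5, 28.4 and 42.7 CPM in libraries titled shy 1, 2 and 3. They were thus lowest in the library highest for crh, and their median r over 6 tested rows was -0.40 to crh and -0.20 to gal. The gene of the glycoprotein hormone alpha subunit, cga, had 0.287, 4.59 and 2.74 against 1.28, 0.354 and 0.994 CPM, and the somatolactin gene smtla (LOC109634465) reached 28.3 CPM in titled shy 3 and at most 5.42 CPM elsewhere.

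Genes of glia summed to 6548 to 8168 CPM in libraries titled bold and 6532 to 8523 CPM in libraries titled shy, with apoea the 1 row of 20 at 0, and their median r was -0.27 to crh and 0.07 to gal. Genes of blood and vessels summed to 299 to 356 against 302 to 365 CPM and those of meninges and choroid plexus to 340 to 479 against 261 to 497 CPM, with no row at 0 in either list. The median r of both lists lay between -0.15 and 0.04 for crh and gal. Genes of the saccus vasculosus, a fish organ below the hypothalamus, and of ventricle cells summed to 22.1 to 29.3 against 20.9 to 24.8 CPM, with reads in all 9 rows and a median r of 0.27 to crh and 0.29 to gal over 6 tested rows. The part of these tissues in the levels of crh and gal was not tested.

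**Figure D5:**
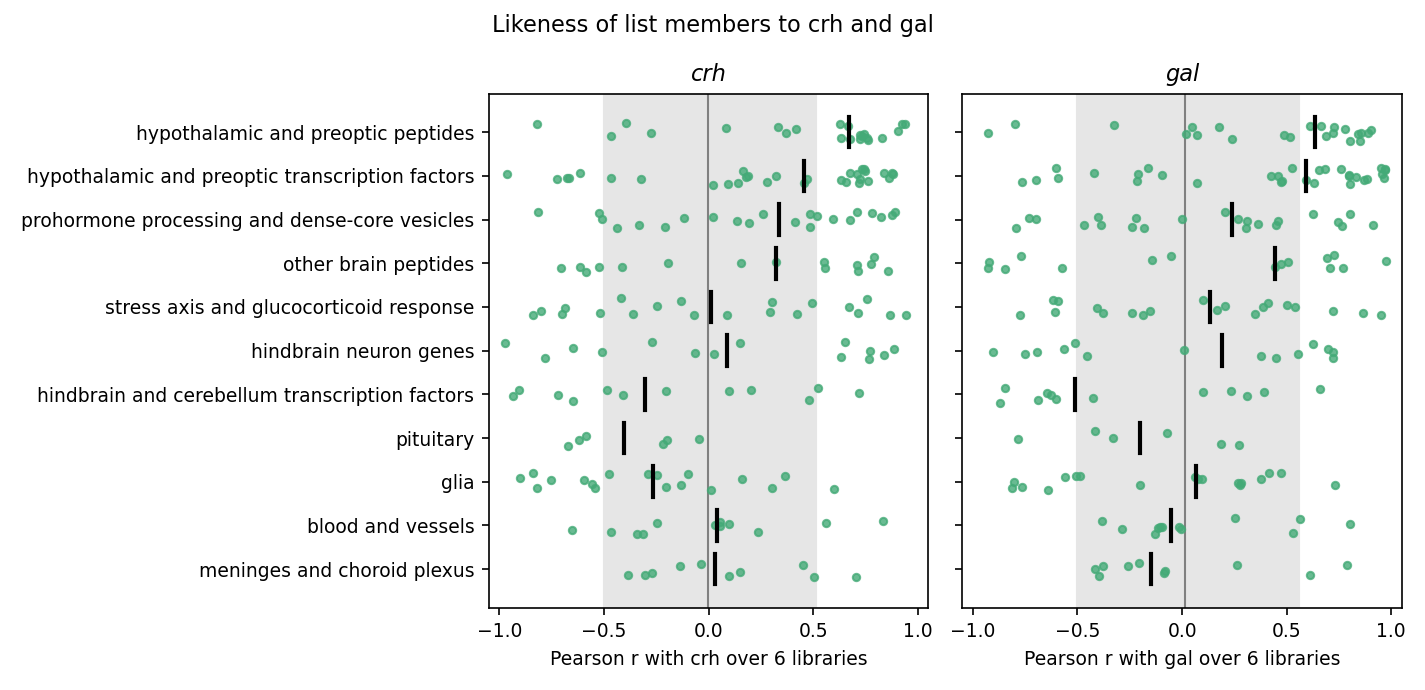
Pearson r of log2 CPM with crh (left) and gal (right) over 6 libraries for each tested member of 11 gene lists; black bars are list medians, the grey band is the interquartile range and the grey line the median of all 19755 tested genes. The medians for crh and gal are 0.67 and 0.64 for hypothalamic and preoptic peptides and 0.09 and 0.19 for hindbrain neuron genes. Those of hindbrain and cerebellum transcription factors are -0.31 and -0.51.

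Among 12949 tested genes with a symbol and a mean of at least 1 CPM, the 8 most like crh by Pearson r had r between 0.983 and 0.993. They were ppp2r2aa, for a regulatory subunit of protein phosphatase 2A, mfn1, for a mitochondrial fusion protein, jmy, for an actin regulator, syngr3a, for a synaptic vesicle protein, aff2, ammecr1, wnt7ba, for a Wnt ligand, and gabrg1, for a GABA-A receptor subunit. All had smaller ranges than crh, from 1.21-fold for mfn1 to 4.53-fold for gabrg1, between the highest and the lowest library. gabrg1 had 6.31 CPM in titled bold 1 and 5.68 CPM in titled shy 1, and 1.39 to 2.79 CPM in the other 4 libraries. The 3 lowest were gabrb2a, for another GABA-A receptor subunit, at r = -0.998, skib, at -0.997, and wsb2, at -0.995. gabrb2a (LOC109643062) had its highest level, 549 CPM, in titled bold 2 and its lowest, 375 CPM, in titled bold 1. Of all tested genes 361, or 1.83%, had r of at least 0.9 to crh over the 6 libraries. All genes of a library share its depth and preparation.

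The 8 genes most like gal, at r between 0.986 and 0.995, were fzd5, for a Wnt receptor, syt6, for a synaptotagmin, brwd3, smyd4, grid1b, for a delta-type glutamate receptor, pmela, for a pigment cell matrix protein, rab4b, for a small GTPase of endosomes, and ago1, for an Argonaute protein. fzd5 (LOC109640878) had 7.65, 3.02 and 3.09 CPM in libraries titled bold 1, 2 and 3 and 10.7, 7.29 and 7.67 CPM in libraries titled shy 1, 2 and 3. pmela (LOC109628869) had the widest range of the 8, with 9.94, 0.348 and 0.349 against 9.25, 4.73 and 5.44 CPM. The 3 lowest were homer1b, for a postsynaptic scaffold, ube2d2, for a ubiquitin-conjugating enzyme, and nptna, for an adhesion protein, at r between -0.991 and -0.988. An r of at least 0.9 was reached by 544 tested genes, or 2.75%, for gal, and by 64, or 0.324%, for both crh and gal. fzd5 had an unadjusted edgeR p of 0.0475 and an adjusted p of 0.955 between titles. It was named for its likeness to gal, which was chosen in part by its values in the groups by title. The p-values of fzd5 are thus no separate support for a difference between titles.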

How the data were processed

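Hindbrain RNA was sequenced as paired 100-base reads from stranded mRNA libraries, per the labels' protocols. The authors deposited raw read counts per gene, 1 table for each of the 6 libraries. Tools listed in the submitters' processing notes, with no role or order, are HTSeq 0.11.1, TopHat2 2.0.11 and Trimmomatic 0.30. Build, annotation, strand setting and treatment of multiply mapping reads: not given in the sources used here. Thus reads of close copies may be split or lost and antisense reads may be mixed in. LOC identifiers received symbols from RefSeq's annotation of assembly ASM2471397v2, which matched 5666 of 14730.

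Libraries were grouped by title. Counts were tested with edgeR 4.0.16 in R 4.3.3 (TMM scaling, filterByExpr, robust quasi-likelihood F test, Benjamini-Hochberg adjustment over all 19755 tested genes, threshold 0.05), with no covariate. CPM are TMM-scaled, and log2 CPM used a prior count of 2. Alternatives were DESeq2 1.42.0, limma-voom 3.58.1, other scalings and filters, a replicate block, and each library left out in turn. The script was tested on simulated data. A gene's likeness to crh or gal is Pearson's r of log2 CPM over 6 libraries.

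Named genes are all members with a read in the 4 CRH and galanin family lists, in each other list the 3 with the smallest p and the 3 of mean CPM of at least 1 with the largest SD, and for likeness the 8 highest and 3 lowest r; not all of these are described, and some are not reported here. A few others, such as the second nr3c1 row, were chosen after their values were seen. The 2 genes and the lists were chosen with earlier results of these data known.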

Additional observations from a re-analysis of the deposited data

How the results depend on the processing

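The count of 0 genes called by edgeR held under every alternative except DESeq2, which called 12. The log2 fold of crh (0.38) was -1.53 to 1.00 when each library was left out in turn, and that of gal (-1.20) was -2.78 to -0.78, the lowest value of each being without titled bold 1. Without both libraries numbered 1, gal was at -2.43. Of the 8 genes most like crh, 2 were among the 100 highest r without both libraries numbered 1. Of the 8 most like gal, 2 were so by Spearman's rho and 2 to 8 with each library left out, the lowest without titled bold 3. Replicate numbers do not pair the libraries in the labels, and deviations of same-numbered libraries correlated at 0.316, 0.136 and 0.0798. For differently numbered libraries of the 2 titles the values ran from -0.221 to 0.0843. With the replicate block 0 genes were called, 1160 against 690 had an unadjusted p under 0.05, and the log2 folds were -0.22 for crh and -1.72 for gal. That count rose to 2393 when titled bold 1 was left out and to 1355 with neither library numbered 1. The median log2 fold of other brain peptides ran from -0.39 (titled bold 1 left out) to 0.47 (titled shy 1 left out), that of hindbrain transcription factors 0.02 to 0.22. The cause was not tested. With 21 to 68 reads in 4 libraries, crh is the less precisely counted of the 2 genes.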

Other observations

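Other brain peptides included genes that ran against gal. cckb (LOC109631669), for the peptide cholecystokinin, had 175, 270 and 237 CPM in libraries titled bold 1, 2 and 3 and 163, 151 and 164 CPM in libraries titled shy 1, 2 and 3, with r = -0.93 to gal. The groups did not overlap, as for 9.53% of all tested genes, and the log2 fold was 0.51 ± 0.15 (edgeR adjusted p = 0.955). edn1 (LOC109640492), for the vasoactive peptide endothelin 1, had 9.22, 23.3 and 17.6 against 9.34, 8.09 and 5.35 CPM, a log2 fold of 1.14 ± 0.35 (edgeR adjusted p = 0.955). grp, for gastrin-releasing peptide, had 2.01, 1.63 and 1.99 against 3.17, 3.89 and 3.55 CPM, a log2 fold of -0.91 ± 0.29 (edgeR adjusted p = 0.955). The second cholecystokinin row, ccka (LOC109631978), instead followed crh, with 5.11, 0.174 and 1.25 against 3.48, 1.72 and 0.946 CPM and r = 0.86. Of the 15 tested rows, 3 were higher and 1 was lower in titled bold at an unadjusted edgeR p under 0.05, against 1.74% and 1.75% of all tested genes, and 0 were called.

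Some genes of monoamine neurons also differed among libraries. th, for the first enzyme of catecholamine synthesis, had 11.3, 1.045 and 4.44 CPM in libraries titled bold and 9.78, 3.18 and 2.08 CPM in libraries titled shy, with r = 0.84 to crh. slc6a4b (LOC109638171), for a serotonin transporter, had 3.73, 0 and 1.196 against 7.71, 3.84 and 0.284 CPM. Of 14 tested rows of hindbrain neuron genes, 2 had an unadjusted edgeR p under 0.05, slc6a4 and dbh, both higher in titled bold as were 1.74% of all tested genes at that level, and 0 were called.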
